A study of Schizosaccharomyces pombe with 10 samples.

Results

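The 7 genes described are mei4 (SPBC32H8.11), ssm4 (SPAC27D7.13c), rec8 (SPBC29A10.14), spo5 (SPBC29A10.02), crs1 (SPBC2G2.09c), mei2 (SPAC27D7.03c) and ste11 (SPBC32C12.02) of fission yeast, Schizosaccharomyces pombe. They were chosen by gene ID as meiotic genes that are quiet in growing cells. The rule itself uses no measured value, but it was set with earlier results of these data known. They are 7 of the 6116 gene IDs in the deposited table, and 181 of its 126317 windows carry one of their IDs. The windows within 1 kb on each side were taken as flanks.

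The libraries come from chromatin immunoprecipitation followed by sequencing (ChIP-seq), which measures how much DNA of each locus is recovered and does not measure RNA. The study asked where the class I myosin Myo1 lies on the genome in control and in low phosphate. There were 3 Myo1-GFP libraries from high phosphate (rich YES medium), 3 Myo1-GFP libraries from low phosphate (YES LowPi), and 2 libraries labelled NoIP from each medium. Myo1-GFP cells carry green fluorescent protein on Myo1, and the strain of the NoIP libraries is labelled wild-type. All cells spent 4 h at 30°C in their medium before fixation, and the same pulldown on GFP-binding beads is written down for every library. Whether the NoIP libraries passed through that pulldown from a strain without GFP, or skipped it, is not given in the sources used here. Nothing states that the replicates were separate cultures, so p-values measure the spread between these libraries, which may be technical.

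Meiosis in fission yeast starts when nutrients run out. Ste11 is the transcription factor that turns on mating and early meiotic genes, among them mei2, whose RNA-binding product is the switch that starts meiosis. Mei4 is a forkhead transcription factor of middle meiosis, Rec8 is the meiotic cohesin subunit that holds sister chromatids together, Ssm4 is a microtubule-associated protein of nuclear movement in meiotic prophase, Spo5 is an RNA-binding protein needed for meiotic progression and spore formation, and Crs1 is a meiosis-specific cyclin. In growing cells the protein Mmi1 binds transcripts of mei4, ssm4, rec8, spo5 and crs1 and hands them to the nuclear exosome for destruction. Mmi1 recognises repeats of the RNA hexamer UNAAAC. Mei2 is not silenced this way in growing cells but is restrained as a protein, and ste11 is controlled by nutrient signalling.

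The sequences are given because they carry this division of the members, with Mmi1 hexamers in one set and Ste11 binding elements upstream of mei2 and ste11. Sequences and coordinates are from RefSeq assembly ASM294v3. The table uses ASM294v2, whose 3 chromosomes match ASM294v3 in length. The DNA form of the hexamer, TNAAAC, was searched on the sense strand of each annotated gene. Of 5113 protein-coding genes 90.7% held at least 1 copy, with a median of 1.65 copies per kb. The gene rec8 held 16 copies or 7.78 per kb, crs1 held 9 or 7.54 per kb, spo5 held 14 or 6.65 per kb, ssm4 held 13 or 6.30 per kb, and mei4 held 11 or 4.96 per kb. Only 0.235% of protein-coding genes were as dense as rec8 or denser, and 1.60% were as dense as mei4. In contrast, ste11 held 8 copies or 1.99 per kb, a density that 37.1% of genes reached, and mei2 held 2 or 0.49 per kb, which 89.0% reached. The antisense strand of the 5 Mmi1-bound genes held between 4 and 10 copies each. The 60 coding bases with most copies are printed for each of those 5 genes, with the hexamers in capitals.
mei4, chrII:1473911-1473970, plus strand: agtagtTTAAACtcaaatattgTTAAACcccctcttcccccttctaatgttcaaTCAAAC
ssm4, chrI:4535255-4535314, minus strand: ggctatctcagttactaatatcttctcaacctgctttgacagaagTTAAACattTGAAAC
rec8, chrII:2570111-2570170, plus strand: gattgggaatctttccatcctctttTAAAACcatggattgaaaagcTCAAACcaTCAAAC
spo5, chrII:2537500-2537559, plus strand: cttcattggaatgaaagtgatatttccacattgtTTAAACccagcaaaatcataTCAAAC
crs1, chrII:3452396-3452455, minus strand: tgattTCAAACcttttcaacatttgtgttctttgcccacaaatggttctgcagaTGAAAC

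Ste11 binds a DNA element called the TR box, whose 9-letter core TTCTTTGTT was searched on both strands in the 500 bases upstream of each annotated start. It was found upstream of 2.84% of the 5113 protein-coding genes. Among the members mei2 had 2 matches, starting 160 and 138 bases upstream, and ste11 had 1, starting 127 bases upstream. The other members had 0 matches in that window. The core of the element bound by Mei4, GTAAACA, was found upstream of 24.4% of genes, and of mei4 and spo5 among the members, once each. The window upstream of mei2 that differed most between the media in the NoIP libraries holds both TR box cores, and is printed with them in capitals, followed by the match upstream of ste11 with 10 bases on each side.
mei2, chrI:4515101-4515300, minus strand: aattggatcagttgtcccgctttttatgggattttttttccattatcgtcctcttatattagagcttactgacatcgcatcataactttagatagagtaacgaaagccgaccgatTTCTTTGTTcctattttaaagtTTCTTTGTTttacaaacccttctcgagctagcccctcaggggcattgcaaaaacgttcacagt
ste11, chrII:3983239-3983267, plus strand: aaagttgaatTTCTTTGTTtgattttcat

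Values are given as levels: log2 of the signal of a window plus 1, minus the same for the median window of that library, so that 0 is the median window and 1 is double its signal. The level of a gene body or flank is the mean over its windows, which makes it comparable between genes of different length. Depth, taking the smallest step in a library's values as 1 read, ran from 1.42 to 43.8 M reads summed over overlapping windows. Replicate 3 of Myo1-GFP in each medium was shallow, with 8 and 11 reads in the median window against 64 or more in the other 8 libraries, called the deeper libraries below. Counting error alone gives the median window a relative SD of 35.4% and 30.2% in the 2 shallow libraries. Tests are limma's moderated test across all gene bodies or all windows with Benjamini-Hochberg adjustment at 0.05.

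The bodies of the 7 genes lay close to the median window, between a mean level of -0.23 and 0.40 over the 10 libraries. As a yardstick, the bodies of 6 strongly transcribed genes (tdh1, eno101, pgk1, adh1, fba1 and tef101) had fitted levels from 0.83 to 1.34, each above the highest member. These levels are taken over both media. In low phosphate alone the mean of ste11 was 0.59 in Myo1-GFP and 0.77 in NoIP. Against the median window 3 members were called higher and 1 lower, where 24.7% of all 6115 gene bodies were called higher and 18.7% lower. The members' share of calls is thus not far from that of all genes. Whether these genes were transcribed in the cells sequenced cannot be read from DNA recovery, so the name of the group was not checked.

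**Figure D1:**
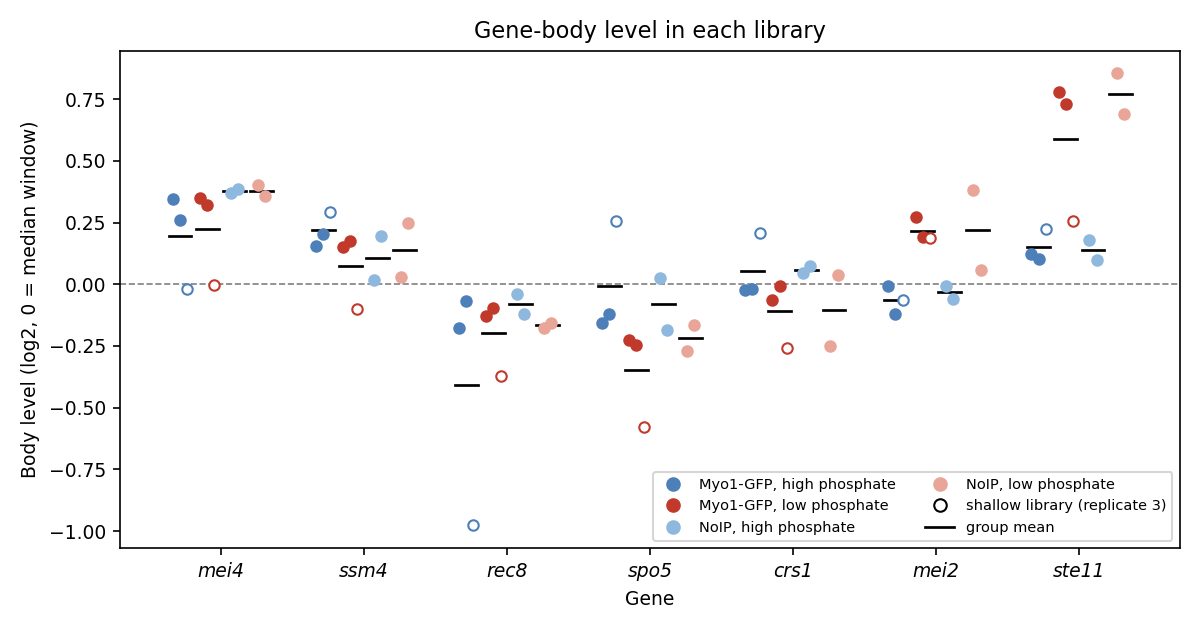
Mean body level of each of the 7 genes in each of the 10 libraries (log2 scale, 0 is the median window of the library, dashed). Points are libraries, coloured by group, open points are the 2 shallow libraries and black bars are group means; the low phosphate points of ste11 (0.26 to 0.85) lie above its high phosphate points (0.10 to 0.22), and those of mei2 (0.06 to 0.38) lie above its highest high phosphate point of -0.01.

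The gene ste11 had the highest body level as a mean over all 10 libraries, while in high phosphate mei4 was higher in both kinds (0.20 against 0.15 in Myo1-GFP and 0.38 against 0.14 in NoIP). It stood at 0.12, 0.10 and 0.22 in the 3 Myo1-GFP libraries of high phosphate and at 0.18 and 0.10 in the 2 NoIP libraries of high phosphate. In low phosphate it stood at 0.78, 0.73 and 0.26 in Myo1-GFP and at 0.85 and 0.69 in NoIP. All 10 libraries were above the median window, and the lowest of low phosphate, the shallow Myo1-GFP library, was above the highest of high phosphate. The fitted level was 0.41 ± 0.06 (SE; limma adjusted p = 0.00051), and the mean lay at percentile 87.7 of gene bodies.

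The body of mei4 was next, with -0.02 and -0.00 in the shallow Myo1-GFP libraries of high and low phosphate. In the 8 deeper libraries it ran from 0.26 to 0.40, all above the median window. The fitted level was 0.29 ± 0.05 (SE; limma adjusted p = 0.00209), at percentile 83.2 of gene bodies. The gene ssm4 followed with a fitted level of 0.13 ± 0.05 (SE; limma adjusted p = 0.0401). Its libraries ran from -0.10 in the shallow Myo1-GFP low phosphate library to 0.29 in the shallow high phosphate one, and 9 of 10 were above the median window. This call was lost when any of 9 of the 10 libraries was left out (adjusted p from 0.0542 to 0.161) and with a block for replicate number (0.0617).

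The body of mei2 had libraries on both sides of the median window, 5 above and 5 below, with a fitted level of 0.09 ± 0.04 (SE; limma adjusted p = 0.126). The 5 above were the low phosphate libraries. Only the 5′ part of crs1 could be measured, by 7 windows, because its 3′ part overlaps ade9 and carries that gene's ID. Its body stood at -0.03 ± 0.05 (SE; limma adjusted p = 0.691), with libraries from -0.26 to 0.21.

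At the low end, 2 members lay below the median window by more than 0.1. The body of spo5 was called lower, at -0.16 ± 0.06 (SE; limma adjusted p = 0.0474), with 8 of 10 libraries below 0 and a range from -0.58 to 0.26. The extremes were the shallow Myo1-GFP libraries of low and high phosphate. The call of spo5 was lost when any of 9 of the 10 libraries was left out (adjusted p from 0.0504 to 0.156) and with the replicate block (0.0937). The body of rec8 was below 0 in all 10 libraries, from -0.98 in the shallow high phosphate library to -0.04, and in the deeper libraries its mean was -0.12 ± 0.05 (SD, n = 8). Its fitted level of -0.21 ± 0.08 (SE) missed the threshold (limma adjusted p = 0.0693). The level of rec8 passed it with the 8 deeper libraries (-0.12, limma adjusted p = 0.00214). It also passed without the shallow high phosphate library (-0.14, 0.0194) and without Myo1-GFP high phosphate replicate 2 (-0.26, 0.0367). With the replicate block it passed at -0.31 (0.0043), further below 0 than in the main fit or the deeper libraries. The shallow libraries had the lowest rec8 values and are the only ones with their replicate number. Their part in the block's value was not tested.

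In order of mean body level the members were ste11, mei4, ssm4, mei2, crs1, spo5 and rec8. Of the 6 neighbouring pairs in this order, crs1 and spo5 differed by more than the spread of their difference over libraries, by 0.14 ± 0.12 (SD, n = 10), with crs1 higher in 9 libraries. The other 5 pairs did not. In the 8 deeper libraries mei4 exceeded ssm4 in all 8, by 0.20 ± 0.11 (SD, n = 8), while rec8 was above spo5 in 6 of the 8, so the last place in the order rests on a shallow library.

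Flanks of mei4 were called higher and those of rec8 lower, where 30.3% of all gene flanks were called higher and 17.8% lower. The downstream flank of mei4 is act1, the actin gene, whose 10 windows there had a mean level of 1.20 ± 0.38 (SD, n = 10 libraries), while the upstream flank in cdk9, a kinase gene, had -0.02 ± 0.21. The highest window of all members and flanks was in act1 at chrII:1476201-1476400, with levels from 1.10 to 1.71 over the 10 libraries. Within mei4 itself the mean level was 0.20 ± 0.16 (SD, n = 10) in the 15 windows of the coding span. In the 6 windows beyond it, toward act1, the mean was 0.46 ± 0.28. The lowest window of mei4, at chrII:1474601-1474800, was centred inside the coding span near its 3′ end, so the level did not rise evenly. Its levels ran from 0.00 to 0.21 in the 8 deeper libraries and were -0.68 and -2.46 in the shallow ones.

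**Figure D2:**
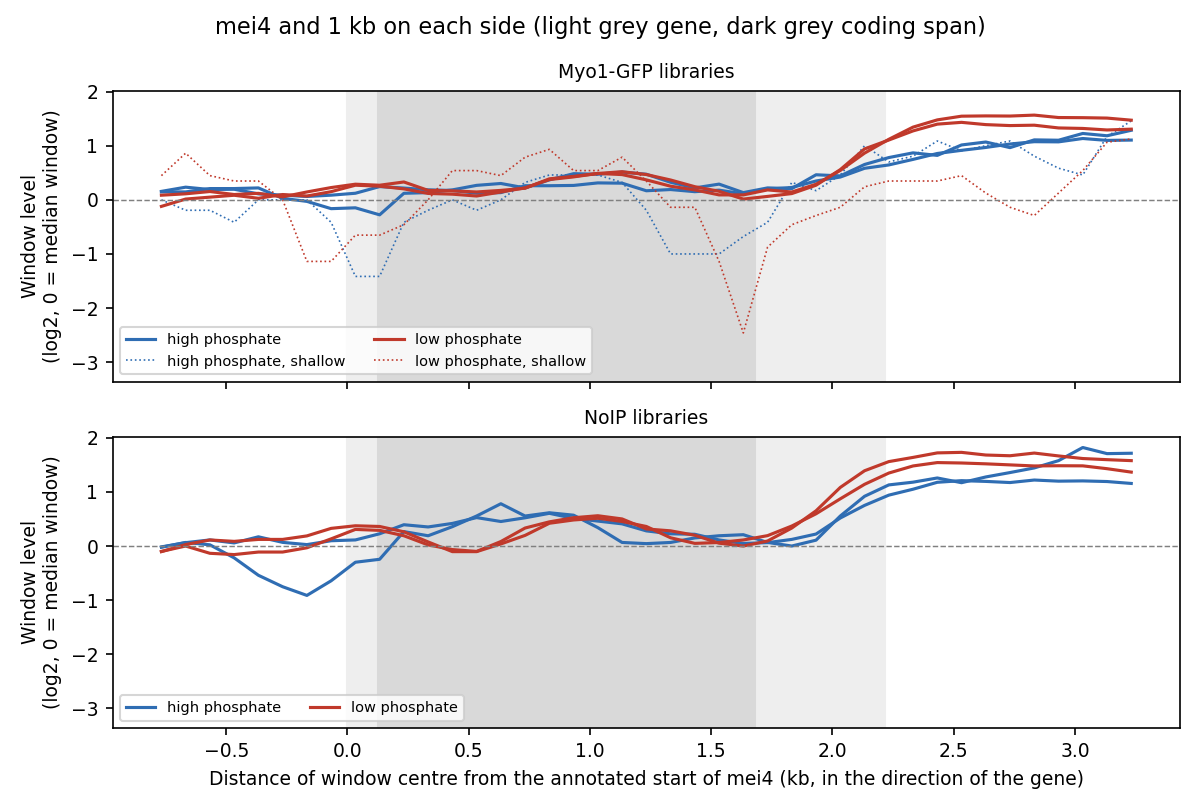
Level of each 200-bp window (log2, 0 is the median window) against the distance of its centre from the annotated start of mei4 in kb, 1 line per library, Myo1-GFP above and NoIP below, with dotted lines for the 2 shallow libraries. The mean over libraries reaches 0.49 within the coding span, and the climb past 2 kb leads into act1, where the highest window has levels of 1.10 to 1.71.

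The body of mei4 thus lay below its flanks, by 0.32 ± 0.05 on the log2 scale (SE; limma adjusted p = 0.00123) and in 10 of 10 libraries. The body of ste11 lay above its flanks by 0.31 ± 0.07 (SE; limma adjusted p = 0.00817), in 10 of 10 libraries. Its flanks were unlike, with the upstream one at -0.08 ± 0.32 and the downstream one at 0.36 ± 0.09 (SD, n = 8 deeper libraries). In the deeper high phosphate libraries the body, from 0.10 to 0.18, was below the downstream flank, from 0.25 to 0.47. The body of spo5 lay below its flanks, at -0.18 ± 0.05 (SE; limma adjusted p = 0.0285) and in 9 of 10 libraries, a call that was lost when any of 6 libraries was left out (adjusted p from 0.0510 to 0.122). For all genes 16.4% were called higher and 16.7% lower than their flanks. The remaining 4 members had differences from -0.10 to 0.07, none past the threshold. With the replicate block rec8 passed it (-0.17, limma adjusted p = 0.0235). However, rec8 had -0.71 and -0.33 in the shallow libraries and a mean of 0.02 ± 0.07 (SD) in the 8 deeper ones. With the 8 deeper libraries crs1 passed the threshold (-0.12, limma adjusted p = 0.00601). The downstream flank of crs1 holds the 3′ part of the gene itself, from chrII:3452323, so this difference sets one part of crs1 partly against another. In 4 of the 8 deeper libraries the body of ssm4 was above its flanks and in 4 below. The low flank of rec8 was the downstream one in orc1, a replication origin gene, at -0.32 ± 0.30 (SD, n = 10), and its upstream flank, 7 of whose 10 windows lie in atp7, was at 0.03 ± 0.20. The call of the rec8 flanks was lost without NoIP high phosphate replicate 2 (adjusted p = 0.0769) and without either NoIP low phosphate library (0.0564 and 0.0701).

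The hexamer-dense stretches printed above did not share a level. The 2 windows that hold the stretch of mei4 ranked 4 and 5 of its 21 body windows by the mean over the 10 libraries. In the deeper libraries they stood at 0.45 ± 0.10 (SD, n = 8) against a median body window of 0.26. For rec8 the 2 windows stood at -0.09 ± 0.08 and for ssm4 the 1 window stood at 0.13 ± 0.19. In spo5 the window with the stretch was the lowest of its 23 over the 10 libraries, with -3.46 in the shallow low phosphate library, but in the deeper libraries it stood at -0.19 ± 0.11, the same as its median body window of -0.19. The stretch of crs1 lies under the ade9 ID and its window stood at 0.41 ± 0.11.

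Myo1-GFP was then compared with NoIP, which addresses whether the tagged myosin recovers these loci above background. No member body was called, with 0 of 7 at limma adjusted p under 0.05 in either medium or over the media together, and 0 of 7 at an unadjusted p under 0.05 in each. The same comparisons called 0.0% of all 6115 gene bodies. Over both media the differences ran from -0.18 ± 0.17 (SE) for rec8 to 0.02 ± 0.09 for ssm4, and 6 of 7 were below 0. The value of rec8 turned to 0.0042 with the 8 deeper libraries and with the replicate block. The body of mei4 was lower in each of the 6 Myo1-GFP libraries than in each of the 4 NoIP libraries, at -0.17 ± 0.11 (SE; limma adjusted p = 0.947), an order that 0.327% of gene bodies showed in this direction and 0.164% in the other. The 2 shallow libraries, both Myo1-GFP, gave its lowest values, and in the 8 deeper libraries, which ran from 0.26 to 0.40, the difference was -0.060. Among 321 member and flank windows 0 were called in these comparisons by limma. An unadjusted p under 0.05 was found for 4 windows in low phosphate, 1 in high phosphate and 2 over the media together, against 0.122%, 1.2% and 0.928% of all windows. The flanks and the differences of body and flank gave 0 of 7 calls in each as well. For ste11 and mei2 the differences of Myo1-GFP from NoIP were -0.09 ± 0.12 and -0.02 ± 0.08 (SE).

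Low phosphate was compared with high phosphate within each kind of library. The differences come from separate libraries, but their tests share 1 estimate of spread over all 10 libraries. The gene ste11 showed the largest difference of the 7, +0.44 ± 0.15 (SE; limma adjusted p = 0.343) in Myo1-GFP and +0.63 ± 0.18 (adjusted p = 0.344) in NoIP. The gene mei2 had +0.28 ± 0.10 (adjusted p = 0.416) and +0.25 ± 0.13 (adjusted p = 0.905). With all 10 libraries 0 of 7 members were called in either kind, where 0.131% of gene bodies were called in Myo1-GFP and 0.213% in NoIP. At an unadjusted p under 0.05 there were 3 members in Myo1-GFP (ste11, mei2 and, downward, spo5), against 10.2% of gene bodies, and 1 in NoIP (ste11), against 6.39%. The test of whether the phosphate difference itself differed between Myo1-GFP and NoIP called 0 of 7 members and 0.0% of gene bodies, with limma adjusted p of 1.0 for each member, and 0 members at an unadjusted p under 0.05. Over all 6115 gene bodies 28 had such an unadjusted p. For ste11 the difference of differences was -0.19 ± 0.23 (SE).

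**Figure D3:**
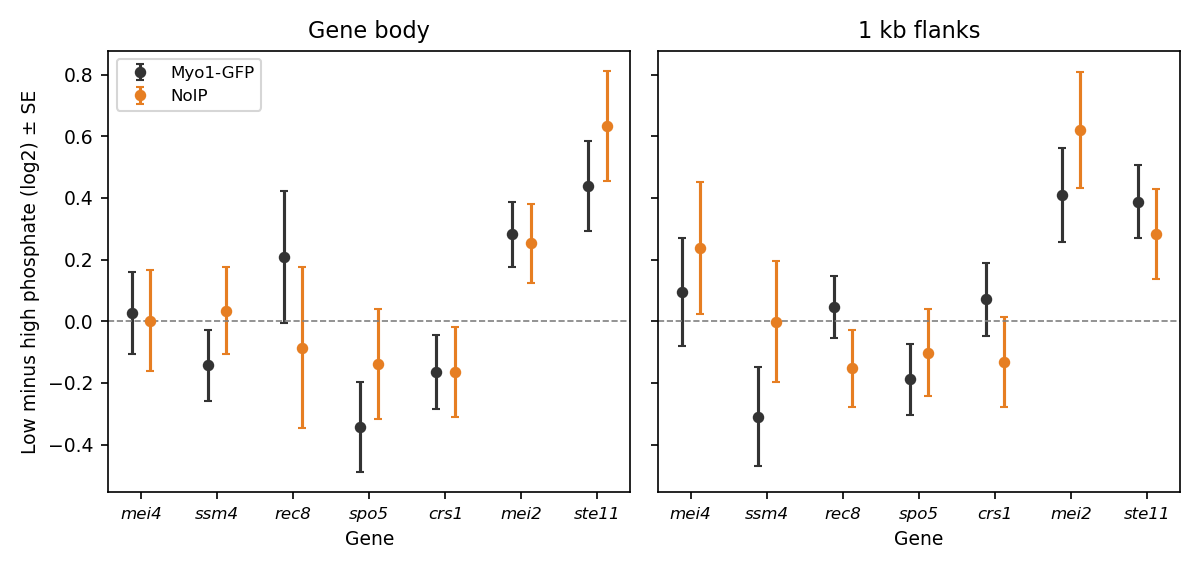
Difference in level between low and high phosphate (log2, low minus high) with its limma SE for each gene, bodies on the left and the 1 kb flanks on the right, Myo1-GFP in black and NoIP in orange. In both kinds of library ste11 and mei2 lie above 0 in body and flanks, while mei4 bodies lie at 0.03 and 0.00.

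With the 2 shallow libraries left out, ste11 was called in both kinds. The difference was +0.64 in Myo1-GFP (limma adjusted p = 0.00751), where 5.9% of gene bodies were called, and +0.63 in NoIP (adjusted p = 0.00644), where 8.55% were called. It was the only member called in each, 1 of 7. Both libraries left out are Myo1-GFP, so the NoIP difference itself did not change. With a shared estimate of spread the 2 calls are not independent. Leaving out the shallow low phosphate library alone gave +0.60 (adjusted p = 0.0279) in Myo1-GFP and +0.63 (adjusted p = 0.0337) in NoIP, whose test shares 1 estimate of spread with Myo1-GFP. Leaving out the shallow high phosphate library alone gave no call in Myo1-GFP (adjusted p = 0.349). With libraries weighted by limma's array weights, which gave the shallow libraries 0.112 and 0.0702, ste11 was called in both kinds (adjusted p = 0.000332 and 0.00657) and mei2 in Myo1-GFP (adjusted p = 0.0384), where these weights called 13.3% of gene bodies in Myo1-GFP and 5.18% in NoIP.

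The bodies of ste11 and mei2 were also the 2 members in which every low phosphate library exceeded every high phosphate library over all 10, an order found for 5.12% of gene bodies. Within Myo1-GFP the same 2 were above without overlap and spo5 was below, where 9.19% of gene bodies were above and 8.19% below. Within NoIP, with 2 against 2 libraries, ste11 and mei2 were above and rec8 and crs1 below, where 28.9% were above and 19.8% below. A joint test of 5 low against 5 high phosphate libraries, added after these values were seen, gave +0.54 ± 0.12 for ste11 (SE; limma adjusted p = 0.0553) and +0.27 ± 0.08 for mei2 (adjusted p = 0.173). It called 0 of 7 members and 1.93% of all gene bodies, and 2 members, ste11 and mei2, had an unadjusted p under 0.05, against 13.0% of gene bodies.

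At ste11 the difference ran along the whole gene. In each of its 42 body windows all 4 deeper low phosphate libraries were above all 4 deeper high phosphate libraries, where 13.0% of all windows had that order. The run was unbroken over 48 windows from chrII:3982801 to 3987700, which begins upstream of the annotated start at 3983376 and ends past the annotated end at 3987400. Adjacent windows of 200 bp start 100 bp apart and share reads, so they are not independent. In the long 5′ leader (23 windows) the mean difference was 0.33 in Myo1-GFP and 0.51 in NoIP. Over the coding span (14 windows) it was 0.63 and 0.79, and in the 3′ part (5 windows) 0.42 and 0.75. With the deeper Myo1-GFP libraries alone the leader differed by 0.52 and the 3′ part by 0.82. The upstream flank differed by 0.57 and 0.47, and the downstream flank in ppk25, a kinase gene, by 0.21 and 0.10, the former falling to 0.032 with the deeper libraries. With all 10 libraries 14 of the 42 body windows kept the order, where 3.94% of all windows had it.

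The window of ste11 with the smallest p was the same in Myo1-GFP and in NoIP, chrII:3986401-3986600 inside the coding span, 3025 to 3224 bases from the annotated start. In Myo1-GFP its levels were -0.15, -0.21 and -0.41 in high phosphate and 0.80, 0.79 and 0.71 in low phosphate. In NoIP they were 0.00 and -0.34 in high phosphate and 0.88 and 0.64 in low phosphate. The 2 media did not overlap in either kind, and the shallow libraries lay with their groups. Over all 10 libraries 3.94% of all windows had this order, and this window was named for its smallest p. The differences were +1.02 ± 0.17 (SE; limma adjusted p = 0.0817 over all windows) and +0.93 ± 0.21 (adjusted p = 0.257), near a doubling. No member or flank window was called in either kind with all 10 libraries, 0 of 321, where 0.0174% of all windows were called in Myo1-GFP, and 37 of the 321 had an unadjusted p under 0.05 in each kind, 35 and 34 of them higher in low phosphate. Of all windows 7.99% had such a p in Myo1-GFP and 4.58% in NoIP, so the count in Myo1-GFP is not far from the background. In the joint test 4 windows of ste11 were called, all in the coding span between chrII:3986301 and 3986900, where 1.08% of all windows were called, and 10 with the replicate block, where 1.77% were. With the 8 deeper libraries 29 windows of ste11 and its flanks were called in Myo1-GFP and 33 in NoIP, where 3.93% and 5.81% of all windows were.

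**Figure D4:**
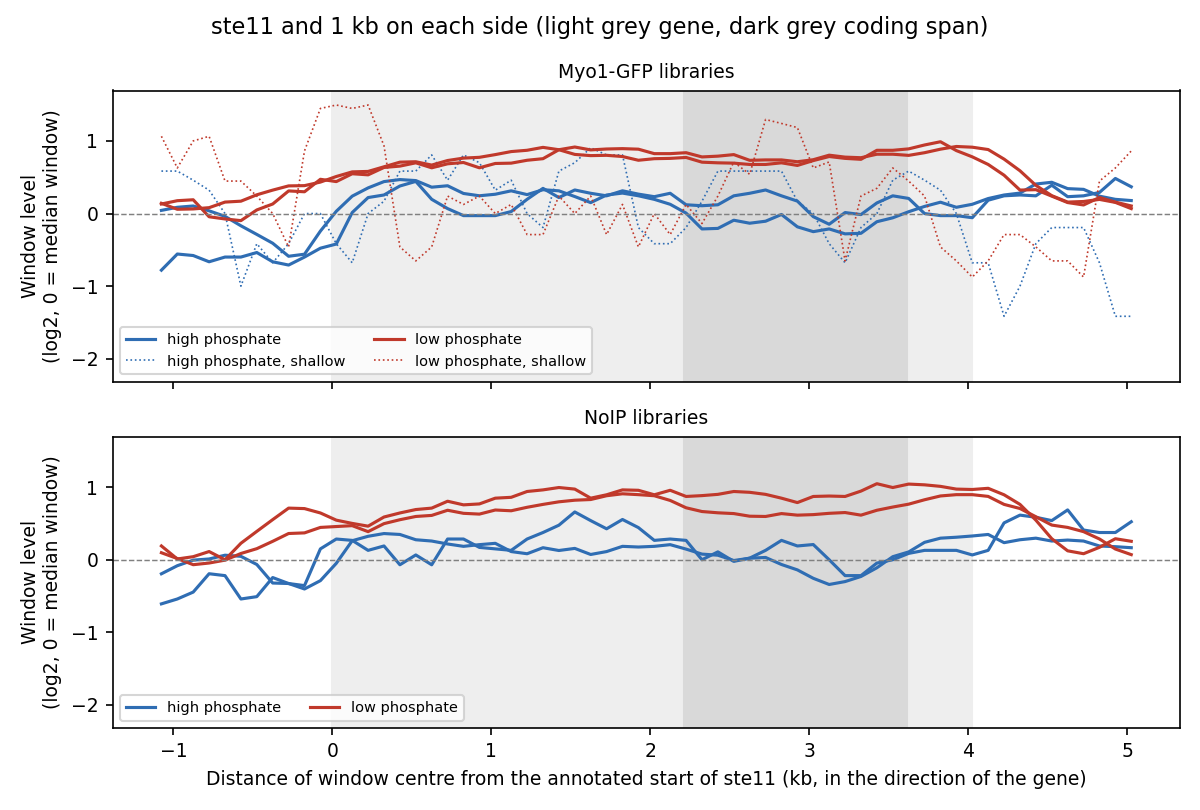
Level of each 200-bp window (log2, 0 is the median window) against the distance of its centre from the annotated start of ste11 in kb, 1 line per library, Myo1-GFP above and NoIP below, high phosphate in blue, low phosphate in red, shallow libraries dotted. Deeper low phosphate lines lie above high phosphate lines over the whole gene, and the downstream flank differs by 0.032 in the deeper Myo1-GFP libraries and by 0.10 in NoIP.

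At mei2 the difference was uneven. The upstream flank differed by 0.22 in Myo1-GFP (0.36 in the deeper libraries) and 0.67 in NoIP and the downstream flank by 0.60 and 0.57, while the 5′ leader (19 windows) differed by 0.26 and 0.06. Over the coding span (22 windows) the difference was 0.28 in Myo1-GFP and 0.40 in NoIP. The flanks together differed by +0.41 ± 0.15 (SE; limma adjusted p = 0.384) in Myo1-GFP and by +0.62 ± 0.19 (adjusted p = 0.415) in NoIP. With the 8 deeper libraries the flank of mei2 was called in NoIP (+0.62, adjusted p = 0.0117), together with that of ste11 (+0.28, adjusted p = 0.0493), where 13.2% of gene flanks were called. In Myo1-GFP the flank of ste11 was called (+0.29, adjusted p = 0.0490) and that of mei2 was not (+0.41, adjusted p = 0.0785), where 10.5% were called. In the joint test the flanks of mei2 differed by +0.51 ± 0.12 (SE; limma adjusted p = 0.0657), where 1.99% of gene flanks were called. With the replicate block they were called (adjusted p = 0.0335), as were 5.23% of gene flanks.

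The window with the 2 TR box cores, 275 to 76 bases upstream of the annotated start of mei2, had the smallest p of the gene in NoIP. Its levels there were -0.64 and -0.24 in high phosphate and 1.06 and 0.72 in low phosphate. The difference was +1.33 ± 0.39 (SE; limma adjusted p = 0.506 with all 10 libraries, and 0.00125 with the 8 deeper ones). In Myo1-GFP the deeper libraries stood at -0.38 and -0.20 in high and at 0.74 and 0.82 in low phosphate, while the shallow ones had 0.32 and -0.29, the other way round. In the 8 deeper libraries the 2 media were thus separate in both kinds. This window lies under SPNCRNA.993, a non-coding RNA, and whether the table used the strand of the reads is not given in the sources used here. The smallest p in Myo1-GFP was downstream, at chrI:4510301-4510500, with -0.73, -0.25 and -1.0 in high and 0.34, 0.14 and 0.54 in low phosphate, +1.0 ± 0.23 (SE; limma adjusted p = 0.207). There the NoIP libraries stood at -0.17 and -0.08 against 0.79 and 0.38, again without overlap. Over all 10 libraries low phosphate was above high phosphate there, as in 3.94% of all windows.

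**Figure D5:**
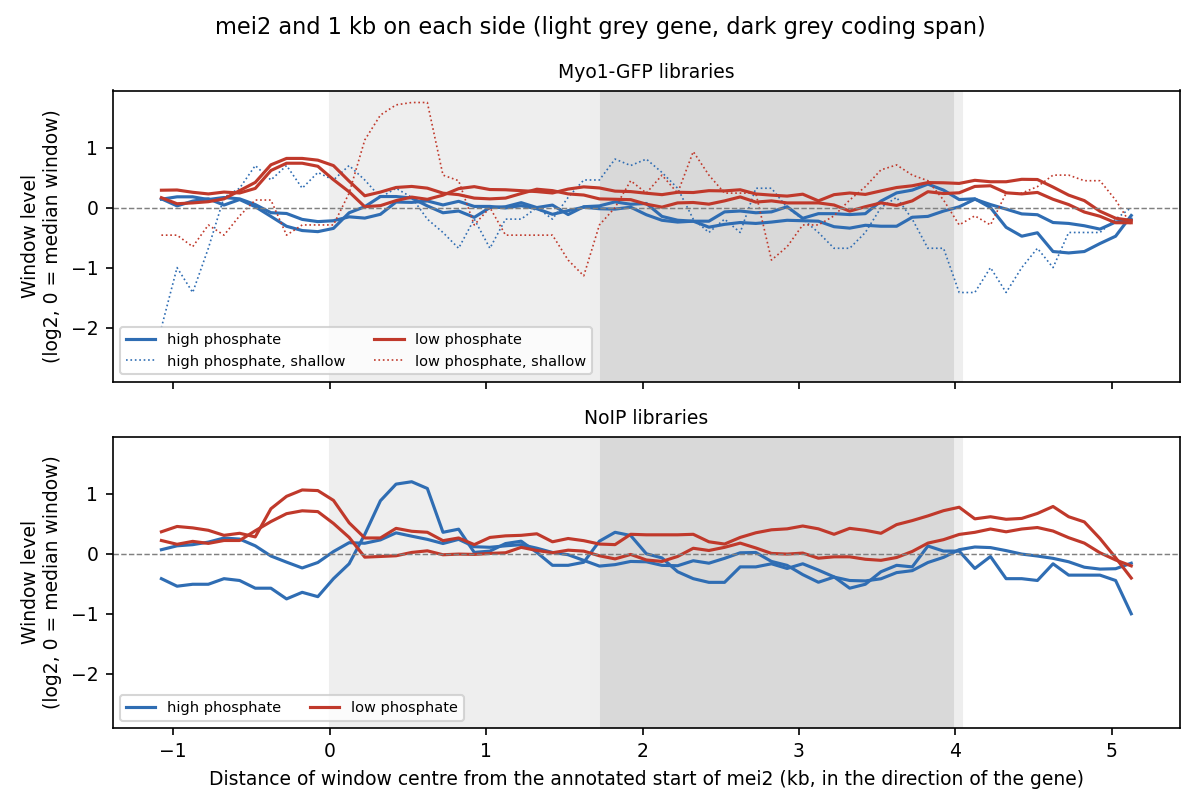
Level of each 200-bp window (log2, 0 is the median window) against the distance of its centre from the annotated start of mei2 in kb, 1 line per library, with the colours and line styles of the plot for ste11. A hump in the deeper low phosphate libraries sits within 0.3 kb upstream of the start, with levels of 0.72 to 1.06 in the window that holds both TR box cores.

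The 5 Mmi1-bound genes gave no common direction between the media. In Myo1-GFP their bodies differed by +0.03 (mei4), -0.14 (ssm4), +0.21 (rec8), -0.34 (spo5) and -0.16 (crs1), and in NoIP by 0.00, +0.03, -0.09, -0.14 and -0.16. For spo5 the value in Myo1-GFP, -0.34 ± 0.15 (SE; limma adjusted p = 0.476), rests partly on the shallow libraries, which had 0.26 in high and -0.58 in low phosphate. With the 8 deeper libraries the Myo1-GFP differences were -0.017 for ssm4, 0.0091 for rec8, -0.097 for spo5 and -0.014 for crs1, so these also rest on the shallow libraries, while mei4 stayed at 0.03. For rec8 the sign turned without the shallow high phosphate library (-0.076). For spo5 the deeper Myo1-GFP libraries had -0.16 and -0.12 in high and -0.22 and -0.24 in low phosphate. The rec8 window with the smallest p in Myo1-GFP, chrII:2569601-2569800, differed by +0.99 ± 0.49 (SE; limma adjusted p = 0.608) with levels of -2.00 and 1.0 in the shallow libraries, and by -0.02 with the 8 deeper ones.

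In the 8 deeper libraries the body levels of mei2 and ste11 had the highest Pearson correlation of the 21 pairs (r = 0.90). Over all 10 their r was 0.84, below that of spo5 and crs1 (0.85, and 0.56 in the deeper libraries). These are descriptions over libraries that share their medium and depth. Outside the members and their 5 kb surroundings, the gene most like ste11 was the non-coding RNA SPNCRNA.1115 (r = 0.98 over 10 libraries) and the one most like mei2 was rga7 (r = 0.90). For mei4 it was SPAC694.02 (r = 0.99), for ssm4 SPNCRNA.1581 (r = 0.96), for spo5 the non-coding RNA prl68 (r = 0.98), for crs1 muk1 (r = 0.95) and for rec8 rfc2 (r = 0.98). The likeness of rec8 and rfc2 was 0.04 over the 8 deeper libraries, so it rests on the shallow ones.

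Lists of related genes gave 0 calls in the 6 comparisons. Of the 11 genes of the elimination machinery (among them mmi1, red1, rrp6 and pab2) 0 were called at the level against the median window, with a median level of -0.07. The smallest p of this list between the media in Myo1-GFP was at rmn1, -0.29 ± 0.16 (SE; limma adjusted p = 0.537). Of 28 other meiotic genes 18 had windows of their own, and 0 were called in any of the 6 comparisons, with median differences between the media of -0.04 in Myo1-GFP and 0.07 in NoIP. Against the median window 1 was called higher (mug187, 0.56) and 4 lower. Of 18 genes that control mating and Mei2, 17 were measured and 0 were called in the 6 comparisons, with 7 higher and 1 lower against the median window, where 24.7% of all gene bodies were higher and 18.7% lower. Their smallest p between the media was at esc1 in Myo1-GFP, +0.25 ± 0.10 (SE; limma adjusted p = 0.445), and at pcr1 in NoIP, +0.40 ± 0.16 (adjusted p = 0.723). All 6 strongly transcribed genes were called higher against the median window. They had medians of -0.33 in Myo1-GFP and -0.71 in NoIP between the media, against -0.02 and 0.02 over all gene bodies, and 0 of the 6 were called in either. In the joint test 1 of them, pgk1, was called lower (-0.89 ± 0.15, SE; limma adjusted p = 0.0230).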

How the data were processed

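ChIP-seq signal was analysed for 10 libraries in 4 groups taken from the labels. The authors deposited a signal value per library for 126317 windows of 200 bp placed every 100 bp. Per the labels, reads were trimmed with Trim Galore 0.3.8 and aligned with Bowtie2 2.2.4 to ASM294v2, and the study's methods name SeqMonk for further processing. The scaling, any removal of duplicate reads and the use of strand are not given in the sources used here. In every library the deposited signal values were whole multiples of a smallest step, within 0.02 of a whole number, and depths rest on reading that step as 1 read. Intervals from counts cover counting error only.

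The 126242 windows with signal in 2 or more libraries were transformed as log2(signal + 1) and centred on the library's median window. The pseudocount of 1 lets an empty window in a shallow library weigh heavily. A gene body was the mean of the windows with its gene ID and a flank that of windows centred within 1 kb. The gene ID of 87 windows ran into a description, which was cut off, and 0 value columns were left unmapped. Limma 3.58.1 (R 4.3.3) was fitted with 1 mean per group on all 6115 gene bodies or all windows, with a trend, two-sided, Benjamini-Hochberg adjusted, and was tested on simulated data. On chromosomes I to III 99.5% of gene-labelled windows had an ID found in the ASM294v3 annotation, which was used for names, coordinates and motifs (Python 3.11.15).

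The members and gene lists were chosen with earlier results of these data known. All 7 members were described, and windows were named for the highest and lowest mean level and the smallest p per comparison; windows of mei2 and ste11 received more room after their values were seen. From a list at most 2 genes were named per comparison. These were the ones with the largest change among those called, otherwise the one with the smallest unadjusted p. Other genes of a list were named only to say what it holds. The main fit used no pairing, and the replicate block took the replicate number as a factor over all 10 libraries. For high and low phosphate in Myo1-GFP the 3 same-numbered pairs deviated together (correlations 0.19, 0.27 and 0.27 over genes). High phosphate replicate 2 and low phosphate replicate 1 correlated more (0.33). In NoIP the same-numbered libraries correlated at 0.53, but 2 pairs, whose values are equal by construction, were too few to take the numbers as pairing. Between Myo1-GFP and NoIP same-numbered libraries had correlations of either sign. The block thus also joins libraries by number where these correlations give no ground for pairing.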

Additional observations from a re-analysis of the deposited data

Results flagged for a closer look

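In 4 windows a comparison split the libraries without overlap in opposite directions in its 2 settings. Only member regions and windows named for their level or smallest p were screened, and the share over all windows was not computed. Between the media alone, 7.38% of all windows were higher and 7.35% lower without overlap in Myo1-GFP, and 24.0% and 21.8% in NoIP. For Myo1-GFP against NoIP the shares were 7.68% and 9.41% in high phosphate and 7.5% and 11.9% in low phosphate. None of the 4 passed limma's test of the difference of differences (adjusted p = 1.0 for each). In the mei4 window at chrII:1474801-1475000 low phosphate was lower without overlap in Myo1-GFP and higher in NoIP, a difference of differences of -0.61, and Myo1-GFP against NoIP turned over in the same way (-0.61). Myo1-GFP was below NoIP in high phosphate and above it in low phosphate in the mei4 windows at chrII:1473601-1473800 (0.67) and chrII:1473501-1473700 (0.83), and in the ste11 window at chrII:3983401-3983600 (0.78). Single libraries were not screened for extreme values, since each group has only 2 or 3.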

How the results depend on the processing

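The results were refitted with pseudocounts, quantile or no centring, array weights, a replicate block, other body and flank definitions, a stricter threshold, the 8 deeper libraries and each library left out. Of 1156 values refitted under settings other than leaving out 1 library, 1050 kept direction and side of the threshold, 60 passed it newly, 14 lost it and 32 changed sign. With 1 library left out, 955 of 1040 kept both. A left-out NoIP library leaves 1 in its group, assumed to vary like the others. The edgeR test was not run, because the values are deposited as signal. The joint test of both kinds was chosen after seeing the data. The causes of the changes below were not tested.

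Members called between the media rose from 0 to 2 with array weights and 1 with the deeper libraries in Myo1-GFP, and to 1 and 1 in NoIP, with 0 to 1 when a library was left out in each. In the joint test 0 became 1 with a pseudocount of 1000, 2 with array weights and 2 with the deeper libraries (0 to 1 leaving out a library). Body levels called fell from 4 to 2 at a threshold of 0.01, 2 inside annotated coordinates and 2 with the median over windows, to 3 with no trend and 3 with the replicate block, and rose to 5 with quantile normalization, a pseudocount of 1000, array weights and the deeper libraries (2 to 4 leaving out a library). Flank levels called went from 2 to 4 with quantile normalization, 5 with array weights, 5 with the deeper libraries and 1 at 0.01 (1 to 4 leaving out a library). Called windows over the 6 comparisons rose from 0 to 94 with array weights and 79 with the deeper libraries (0 to 2 leaving out a library). Calls between the media rose over all features too. The deeper libraries called 3.93% of all windows in Myo1-GFP and 5.81% in NoIP, and 5.9% and 8.55% of gene bodies. The array weights called 13.3% and 5.18% of gene bodies. No share over all features stands beside the counts here for the joint test, for levels or for windows with array weights. Those counts thus do not set the members apart from other genes. With the replicate block 0 member bodies were called in the 6 comparisons (ste11 limma adjusted p = 0.254 in Myo1-GFP and 0.243 in NoIP). Among calls of members, the block changed those of the levels of ssm4, spo5 and rec8. It also changed those of rec8 body minus flanks and of the mei2 flanks in the joint test. Level calls of mei4 and ste11 bodies were kept under each setting and each left-out library.

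The values that changed sign follow. With quantile normalization the difference between the media became -0.043 in Myo1-GFP and -0.081 in NoIP for mei4 and -0.013 in NoIP for ssm4. Under it rec8 body minus flanks became 0.0031, Myo1-GFP minus NoIP 0.024 for spo5 and 0.0072 for mei2, and the level of the ssm4 window at 4536201 0.0072. Inside annotated coordinates the NoIP differences between the media became -0.024 for mei4 and -0.017 for ssm4, the crs1 body level 0.075, crs1 body minus flanks 0.0043 and mei2 Myo1-GFP minus NoIP 0.0042. With the median over windows mei4 in NoIP became -0.049, ssm4 body minus flanks -0.0046, the crs1 level 0.027, and Myo1-GFP minus NoIP 0.091 for spo5, 0.0065 for crs1 and 0.031 for mei2. With flanks of 500 bp body minus flanks became -0.016 for ssm4 and -0.029 for mei2, and without centring ssm4 Myo1-GFP minus NoIP became -0.0065. With the replicate block rec8 Myo1-GFP minus NoIP became 0.0042 and the mei2 flank level -0.036. With array weights rec8 body minus flanks became 0.014, the mei4 window at 1474601 0.078 and the ssm4 window 0.051. With the deeper libraries these were 0.022, 0.090 and 0.049, rec8 Myo1-GFP minus NoIP was 0.0042, the spo5 flank level -0.000796 and the rec8 window at 2569601 -0.021 between the media in Myo1-GFP. Leaving out each library, the difference between the media ran from -0.080 to 0.14 in Myo1-GFP and -0.021 to 0.024 in NoIP for mei4, -0.075 to 0.14 in NoIP for ssm4 and -0.076 to 0.38 in Myo1-GFP for rec8. Myo1-GFP minus NoIP ran from -0.031 to 0.079 for ssm4, -0.095 to 0.028 for spo5, -0.077 to 0.068 for crs1 and -0.098 to 0.064 for mei2. Levels ran from -0.013 to 0.035 for spo5 flanks, -0.062 to 0.011 for the crs1 body, -0.045 to 0.069 for mei2 flanks, -0.30 to 0.023 for the mei4 window and -0.14 to 0.042 for the ssm4 window.

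In the 2 shallow libraries a median window of 8 and 11 reads limits what single windows and short genes can show.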
